A study of Mus musculus with 12 samples.

Results

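The genes described here are 10 secreted or membrane-bound antagonists and modulators of bone morphogenetic proteins (BMPs) and activins, taken from the 54532 mouse genes in each count table by their Ensembl identifiers. They are *Nog*, *Chrd*, *Chrdl1*, *Grem1*, *Bmper*, *Twsg1*, *Fst*, *Fstl1*, *Fstl3* and *Bambi*, and all 10 were found. RNAseq was performed on brainstem progenitors of C57BL/6 pups with the genotype Nestin TVA; p53 floxed, isolated between postnatal days 3 and 5 and grown in serum-free medium with EGF and FGF2. The cells were infected with RCAS vectors, which enter only cells that carry the TVA receptor, here driven by the nestin promoter. There were 4 groups of 3 samples, which received either human *ACVR1* WT or human *ACVR1* R206H, each alone or together with H3.1K27M. Every group therefore carried an introduced *ACVR1*, no group was uninfected, the groups without H3.1K27M are not labelled as having received a wild-type histone vector, and the labels list no Cre virus for these cells. The comparison addressed here is whether the antagonists differ with the activity of the receptor and with the mutant histone.

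ACVR1 (also called ALK2) is a type I BMP receptor that phosphorylates SMAD1, SMAD5 and SMAD8, and the R206H form is known for signalling through these SMADs also in response to activin A. BMP signalling induces several of its own inhibitors, of which noggin and the pseudoreceptor BAMBI are textbook examples, so that antagonist transcripts are often read as negative feedback. Noggin, chordin, chordin-like 1 and gremlin 1 bind BMPs outside the cell, follistatin and follistatin-like 3 bind activins tightly, and BMPER and TWSG1 bind BMPs and chordin and can raise or lower signalling depending on the context. H3.1K27M is a histone mutant that lowers the repressive mark H3K27me3 across much of the genome.

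Library totals lay between 19315020 and 26456257 counts (median 20994196). All 8 neural progenitor markers examined were detected in each group, and their summed level lay between 5631 and 7770 CPM, the count scaled to library size with TMM factors, over the 12 samples. *ACVR1* WT replicate 1 stood apart within its own group. The Pearson correlation of log2 CPM across genes was 0.960 to 0.993 between *ACVR1* WT replicates and at least 0.996 within each other group. With the *ACVR1* R206H samples replicate 1 correlated at 0.990 to 0.994, above the 0.977 and 0.960 with replicates 2 and 3 of its own group. Replicates 2 and 3 correlated with those samples at 0.986 to 0.991 and 0.974 to 0.981, and with each other at 0.993. The biological coefficient of variation estimated by edgeR was 0.275 with *ACVR1* WT and 0.12 when replicate 1 was left out, against 0.0453 to 0.0594 in the other groups. Calls of the members and of the pathway lists and levels per length that use *ACVR1* WT without H3.1K27M are therefore also given without that sample. Calls of cell type markers are given only with it. The row of mouse *Acvr1* had 50.7 ± 3.87 CPM (SD, n = 3) with *ACVR1* WT, 93.5 ± 17.4 with *ACVR1* R206H, 232 ± 115 with *ACVR1* WT and H3.1K27M, and 877 ± 273 with both mutations. Reads of the introduced human gene and of the mouse gene cannot be told apart in this row, and its part in the results below was not tested.

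The promoters of *Bmper*, *Grem1* and *Chrd* are shown because *Bmper* was higher in all samples with H3.1K27M and *Grem1* in 5 of the 6, while the group means of *Chrd* hardly differed. Each is the 250 bases before the gene's start in RefSeq, in GRCm38, 5′ to 3′ on the strand of the gene, and none of them overlaps an annotated exon. Capitals mark GGCGCC, the GC-rich element that SMADs of the BMP branch can bind; it reads the same on both strands and overlaps no other motif searched. The *Bmper* window lies at chr9:23222826-23223075 on the plus strand, the *Grem1* window at chr2:113758649-113758898 on the minus strand and the *Chrd* window at chr16:20732877-20733126 on the plus strand.
Bmper: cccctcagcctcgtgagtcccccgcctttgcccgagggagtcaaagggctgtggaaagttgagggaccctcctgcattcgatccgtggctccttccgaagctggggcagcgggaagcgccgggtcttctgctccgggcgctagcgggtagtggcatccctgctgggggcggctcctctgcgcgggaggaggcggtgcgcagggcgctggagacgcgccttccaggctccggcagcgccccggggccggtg
Grem1: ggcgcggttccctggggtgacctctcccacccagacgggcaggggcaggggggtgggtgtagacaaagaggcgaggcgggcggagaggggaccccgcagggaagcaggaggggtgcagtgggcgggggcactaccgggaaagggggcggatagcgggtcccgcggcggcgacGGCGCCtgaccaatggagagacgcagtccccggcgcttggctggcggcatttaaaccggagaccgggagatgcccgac
Chrd: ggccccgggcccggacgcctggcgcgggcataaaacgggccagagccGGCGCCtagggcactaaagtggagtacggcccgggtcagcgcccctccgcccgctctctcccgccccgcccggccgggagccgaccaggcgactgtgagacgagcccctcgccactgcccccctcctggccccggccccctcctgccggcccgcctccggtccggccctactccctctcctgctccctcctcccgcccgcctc
GGCGCC occurred once in each of the *Grem1* and *Chrd* windows and was not found in the *Bmper* window, and 9.59% of the 32851 promoter windows in the table held it. The palindromic SMAD element GTCTAGAC was in none of the 3 windows and in 0.167% of all. The 3 windows held 24, 24 and 28 CpG dinucleotides for *Bmper*, *Grem1* and *Chrd*, against a median of 6 and an upper quartile of 16 over all windows. The windows of *Fstl1*, *Fstl3* and *Twsg1* overlapped annotated exons and are not printed. No windows are shown for *Fst*, *Nog*, *Chrdl1* and *Bambi*, so that the 3 printed are not those of the members with the largest change with *ACVR1* R206H.

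Levels of the antagonists were compared with each other as CPM per kilobase of exon. In *ACVR1* WT cells *Twsg1* had the highest level of the 10, 31.3 ± 2.93 CPM per kb (SD, n = 3), followed by *Fstl1* with 21.2 ± 1.34. *Chrdl1* (5.64 ± 3.43) and *Bmper* (2.13 ± 0.46) came next, with SDs that overlapped. *Nog*, *Bambi*, *Chrd* and *Fst* followed between 0.521 and 1.02 CPM per kb, with neighbours that did not differ beyond their SDs. *Grem1* and *Fstl3* were near the limit of detection, with 0.0357 and 0.0413 CPM per kb. Without *ACVR1* WT replicate 1 the first 5 places were the same, with 3.68 CPM per kb for *Chrdl1*, 1.86 for *Bmper* and 1.25 for *Nog*.

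The order changed in the samples with both mutations. *Fstl1* was then first with 30.6 ± 0.632 CPM per kb and *Twsg1* second with 21.7 ± 1.11. *Bmper* (8.55 ± 0.133), *Nog* (7.97 ± 2.16) and *Chrdl1* (7.58 ± 0.492) came next, in an order whose neighbours did not differ beyond their SDs, ahead of *Fst* (2.87 ± 0.236). *Nog* thus made up 9.66% of the summed level of the 10 genes, against 1.62% with *ACVR1* WT, 3.11% with *ACVR1* R206H and 1.56% with *ACVR1* WT and H3.1K27M. The summed level itself was 63.3 ± 3.1, 67.1 ± 1.46, 66 ± 2.21 and 82 ± 3.14 CPM per kb in the same order of groups, ending with both mutations. *Twsg1* and *Fstl1* together held 82.9% of the sum with *ACVR1* WT and 63.8% with both mutations. Without *ACVR1* WT replicate 1, the sum in that group was 62.6 CPM per kb, of which *Nog* held 2.00% and *Twsg1* and *Fstl1* 85.6%.

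**Figure D1:**
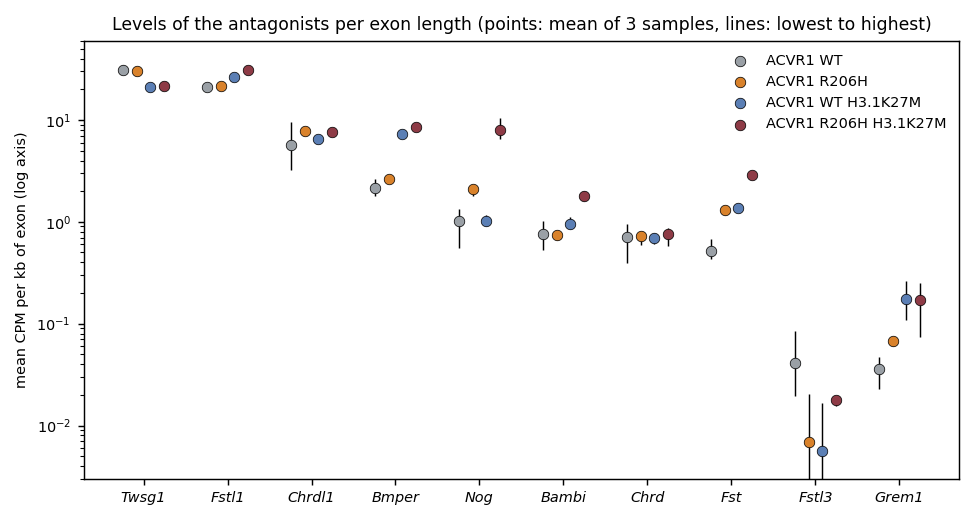
Level of each antagonist in CPM per kilobase of exon on a log axis. Points are the mean of 3 samples of a group and lines run from the lowest to the highest sample, reaching the lower edge of the plot for *Fstl3* in 2 groups that held samples with 0 counts. *Twsg1* and *Fstl1* lead in every group, and *Nog* with both mutations (7.97) stands at the level of *Bmper* and *Chrdl1*.

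*Nog* encodes noggin, which binds BMPs and blocks their access to receptors (ENSMUSG00000048616, a single exon at chr11:89300638-89302332, minus strand, mm10). *Nog* had 0.943, 1.96 and 2.29 CPM in *ACVR1* WT replicates 1 to 3 and 3.80, 3.76 and 3.04 CPM in the *ACVR1* R206H samples. With H3.1K27M it had 1.97, 1.71 and 1.55 CPM beside *ACVR1* WT and 11.8, 11.03 and 17.7 CPM beside *ACVR1* R206H. The samples with both mutations therefore lay far above all others, the *ACVR1* R206H samples lay above *ACVR1* WT without overlap, and H3.1K27M with *ACVR1* WT left *Nog* within the range of *ACVR1* WT alone.

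*Fst* encodes follistatin, which binds activins nearly irreversibly (ENSMUSG00000021765, chr13:114452290-114458951, minus strand). *Fst* had 3.11, 1.96 and 2.09 CPM with *ACVR1* WT and 6.44, 5.41 and 5.98 CPM with *ACVR1* R206H. Cells with H3.1K27M had 6.06, 6.85 and 6.11 CPM beside *ACVR1* WT and 12.8, 12.3 and 14.4 CPM beside *ACVR1* R206H. Its groups formed 3 tiers that did not overlap: *ACVR1* WT lowest, either mutation alone in the middle, and both mutations highest.

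*Bambi* encodes a transmembrane pseudoreceptor without a kinase domain that dampens BMP and activin receptor complexes (ENSMUSG00000024232, chr18:3507923-3516404, plus strand). *Bambi* had 3.68, 2.69 and 5.12 CPM with *ACVR1* WT and 3.35, 4.12 and 3.96 CPM with *ACVR1* R206H. The groups with H3.1K27M had 5.65, 4.66 and 4.32 CPM beside *ACVR1* WT and 9.16, 8.12 and 10.2 CPM beside *ACVR1* R206H. The samples with both mutations did not overlap any other group, *ACVR1* WT overlapped the groups with either mutation alone, and these last did not overlap each other.

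*Bmper*, the vertebrate crossveinless-2 gene, encodes a secreted protein that binds BMPs and chordin (ENSMUSG00000031963, chr9:23223076-23485200, plus strand). *Bmper* had 12.8, 9.30 and 8.72 CPM with *ACVR1* WT and 13.0, 11.6 and 13.2 CPM with *ACVR1* R206H. Together with H3.1K27M it had 36.7, 33.2 and 36.0 CPM beside *ACVR1* WT and 42.0, 40.7 and 41.2 CPM beside *ACVR1* R206H. The 6 samples with H3.1K27M all lay above the 6 without it. The 2 receptors overlapped without H3.1K27M, and with it *ACVR1* R206H lay above *ACVR1* WT by a small step without overlap.

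*Fstl1* encodes a secreted glycoprotein of the follistatin family that can bind BMP4 (ENSMUSG00000022816, chr16:37776873-37836514, plus strand). *Fstl1* had 105.4, 97.0 and 110.0 CPM with *ACVR1* WT and 98.6, 107.1 and 111.2 CPM with *ACVR1* R206H. Samples with H3.1K27M had 130.1, 139.1 and 124.2 CPM beside *ACVR1* WT and 149.2, 154.0 and 148.1 CPM beside *ACVR1* R206H. These groups formed a pair of overlapping groups without H3.1K27M and 2 separate steps above them.

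*Twsg1* encodes twisted gastrulation, which forms complexes with BMPs and chordin (ENSMUSG00000024098, chr17:65921972-65951226, minus strand). *Twsg1* had 147.4, 158.5 and 177.3 CPM with *ACVR1* WT and 151.3, 156.6 and 159.3 CPM with *ACVR1* R206H. With H3.1K27M the levels were 109.1, 113.4 and 106.0 CPM beside *ACVR1* WT and 105.2, 114.9 and 115.3 CPM beside *ACVR1* R206H. All 6 samples with H3.1K27M were below the 6 without it, and the 2 receptors overlapped with and without it.

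*Chrdl1* encodes chordin-like 1, a BMP-binding protein of neural tissue (ENSMUSG00000031283, chrX:143285674-143394262, minus strand). *Chrdl1* had 64.7, 28.1 and 21.7 CPM in *ACVR1* WT replicates 1 to 3 and 58.2, 49.5 and 51.3 CPM with *ACVR1* R206H. Alongside H3.1K27M it had 44.6, 43.2 and 43.6 CPM beside *ACVR1* WT and 50.5, 48.3 and 54.8 CPM beside *ACVR1* R206H. In the *ACVR1* WT group replicate 1 lay apart from the other replicates and had the highest *Chrdl1* of the 12 samples. It was closer to the 43.2 to 58.2 CPM of the other groups. The other replicates of the *ACVR1* WT group, at 28.1 and 21.7 CPM, were the lowest of the 12 samples. Fits without replicate 1 rest on these low samples for *ACVR1* WT without H3.1K27M. The summed level of 6 astrocyte markers was lowest of the *ACVR1* WT group in replicate 1, 3308 CPM in a range of 3308 to 12540, and its part in the result was not tested.

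The remaining 3 members were flat or scarce. *Chrd*, the gene of the BMP-binding protein chordin (ENSMUSG00000006958, chr16:20733127-20742384, plus strand), ranged from 2.45 to 5.89 CPM over the 12 samples with group means of 4.34 to 4.74. *Grem1*, which encodes the secreted BMP antagonist gremlin 1 (ENSMUSG00000074934, chr2:113746164-113758646, minus strand), had 2, 3 and 4 counts with *ACVR1* WT and 5, 6 and 6 with *ACVR1* R206H. With H3.1K27M it had 11, 23 and 16 counts beside *ACVR1* WT and 22, 7 and 21 beside *ACVR1* R206H, so that replicate 2 of the last group lay at the level of *ACVR1* R206H alone. *Fstl3*, a relative of follistatin (ENSMUSG00000020325, chr10:79777272-79782630, plus strand), had 0 to 4 counts per sample and passed the filter on low counts in no comparison. Exon bases of *Fstl3* are shared to 47.3% with *Prss57* on the other strand, those of *Chrd* to 3.82% with *Thpo* and those of *Fst* to 2.51% with *Gm47040*, and the counting did not use strand.

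**Figure D2:**
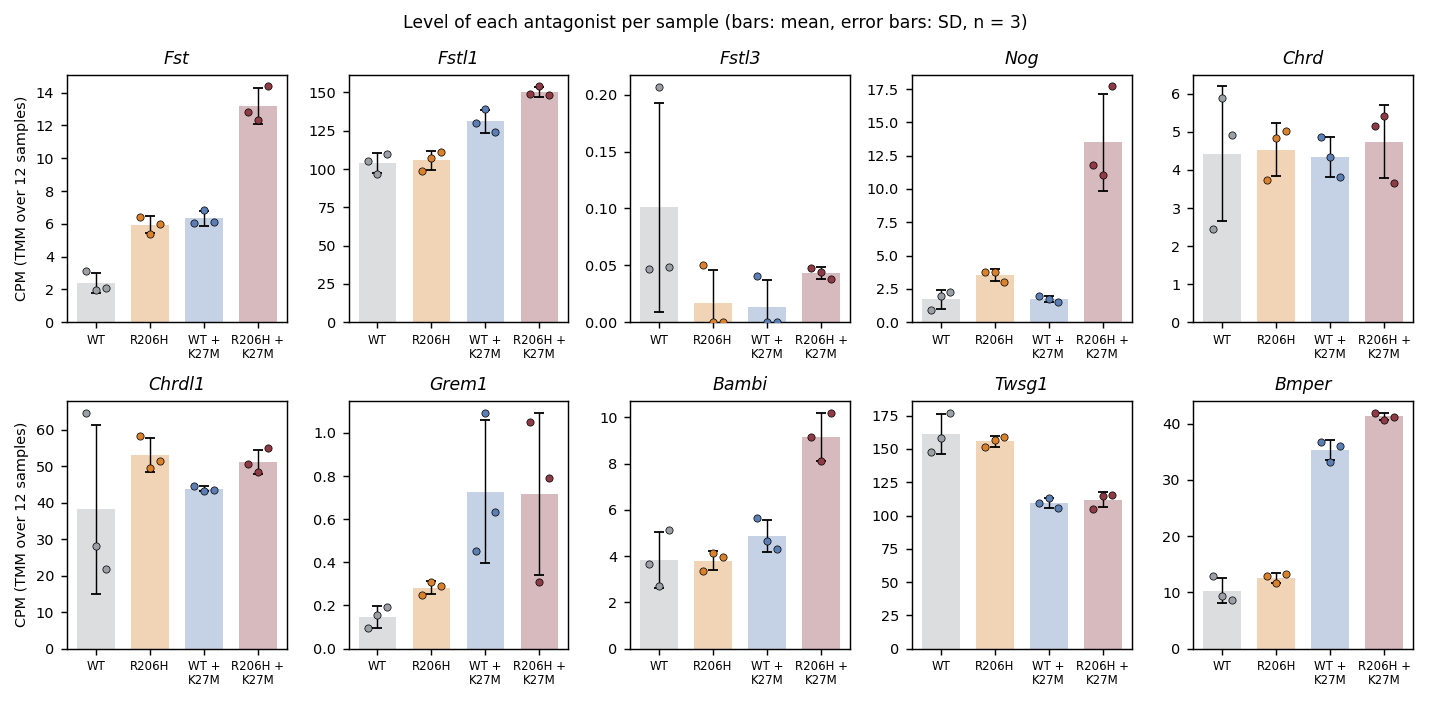
Level of each of the 10 antagonists in CPM, with TMM factors set over the 12 samples. Points are samples, bars the mean and error bars the SD of 3 samples, and each panel has its own axis starting at 0. *Nog* and *Bambi* stand out with both mutations, *Bmper* rises and *Twsg1* falls in the groups with H3.1K27M, and *Fst* lies in 3 tiers.

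Without H3.1K27M, *Fst* and *Nog* had the largest fitted differences between the receptors among the members tested, but no member passed the test across all genes. Of the 8 members tested, 0 were called at 0.05 by the quasi-likelihood test of edgeR, with p adjusted by the Benjamini-Hochberg method over all genes, where 0% of the 15066 genes were called. *Fst* had a log2 fold change of 1.32 (SE 0.22, 95% interval 0.79 to 1.84, adjusted p = 0.94, 2.49-fold) and *Nog* one of 1.04 (SE 0.33, interval 0.24 to 1.83, adjusted p = 0.94). These were the 2 members at an unadjusted p under 0.05, in a comparison where 3.54% of all genes were, and the 2 tested members whose *ACVR1* R206H samples all lay above *ACVR1* WT, as 4.45% of all genes did. DESeq2 called *Fst* alone (adjusted p = 0.0018), with 0.173% of all genes called. *Bmper* (0.30, interval -0.12 to 0.72), *Chrdl1* (0.48, -0.48 to 1.44), *Bambi* (-0.00068, -0.62 to 0.62) and *Chrd* (0.05, -0.75 to 0.85) had intervals that reach a change of considerable size in at least one direction. *Fstl1* (0.03, -0.16 to 0.21) and *Twsg1* (-0.04, -0.24 to 0.15) were held to smaller changes. The median log2 fold change of the 8 members was 0.17, against -0.01 over all genes tested.

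This count rested on *ACVR1* WT replicate 1. Without it, 4 members were called higher with *ACVR1* R206H, where 12.1% of all genes were called higher and 23.1% in either direction. They were *Fst* (log2 fold change 1.56, adjusted p = 0.0024), *Chrdl1* (1.10, adjusted p = 0.0023), *Bmper* (0.49, adjusted p = 0.021) and *Nog* (0.74, adjusted p = 0.034), all from edgeR. Leaving out any other of the 6 samples gave 0 calls among the members. *Nog* moved the other way from *Fst*, *Chrdl1* and *Bmper*, with a smaller change without replicate 1, since that sample had the lowest *Nog* of its group.

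**Figure D3:**
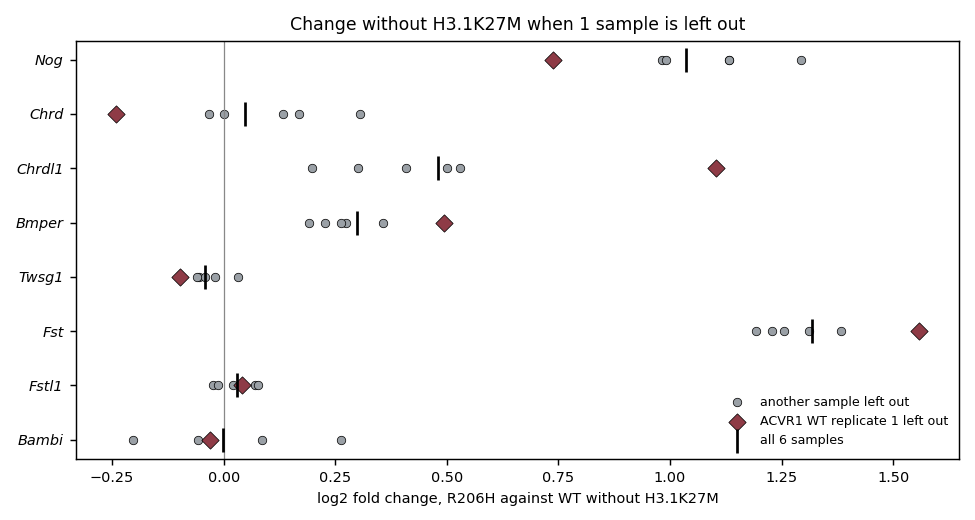
Fitted log2 fold change of *ACVR1* R206H against *ACVR1* WT without H3.1K27M when 1 of the 6 samples is left out (circles; diamonds for *ACVR1* WT replicate 1), with the value from all 6 samples as a vertical bar. The diamond lies apart for *Chrdl1* at 1.10 and is the lowest value for *Nog* at 0.74.

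With H3.1K27M, antagonists of several kinds were higher with *ACVR1* R206H than with *ACVR1* WT, led by *Nog*. Of the 9 members tested, 6 were called and all were higher, where 20.3% of the 15672 genes were called, 11.4% higher and 8.95% lower. *Nog* rose 7.79-fold (log2 fold change 2.96, SE 0.21, 95% interval 2.51 to 3.41, edgeR, adjusted p = 1.1e-06). *Fst* rose 2.09-fold (1.06, SE 0.10, interval 0.85 to 1.27, adjusted p = 9.8e-06) and *Bambi* 1.88-fold (0.91, SE 0.13, interval 0.63 to 1.19, adjusted p = 0.00029). The other 3 rose by far less: *Chrdl1* by 0.23 on the log2 scale (adjusted p = 0.011), *Bmper* by 0.22 (adjusted p = 0.011) and *Fstl1* by 0.20 (adjusted p = 0.0087). In each of the 6 genes all 3 *ACVR1* R206H samples lay above all 3 *ACVR1* WT samples, as was the case for 19.2% of all genes. *Chrd* (0.12, interval -0.24 to 0.47) and *Twsg1* (0.03, -0.07 to 0.13) did not pass the test. *Grem1* was not resolved, with an interval of -0.89 to 0.89 around 0.0014.

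*Nog*, *Fst* and *Bambi* were called under every alternative tried, with log2 fold changes of 2.71 to 3.09, 0.99 to 1.11 and 0.82 to 1.03 when single samples were left out. The small changes were less firm. *Chrdl1* was lost without *ACVR1* WT with H3.1K27M replicate 2 (adjusted p = 0.060) or without *ACVR1* R206H with H3.1K27M replicate 3 (adjusted p = 0.066), and *Bmper* without the former (adjusted p = 0.068). With all 12 samples in one fit, *Chrdl1*, *Bmper* and *Fstl1* were no longer called by edgeR (adjusted p = 0.82, 0.44 and 0.17). The median log2 fold change of the 9 members was 0.22, against 0.0014 over all genes tested. Markers of cell types also moved in this comparison. Of 8 oligodendrocyte lineage markers 6 were called lower with *ACVR1* R206H and 0 higher. From *ACVR1* WT to *ACVR1* R206H, both with H3.1K27M, the summed levels of the astrocyte markers were 3099 to 3185 and 4052 to 4246 CPM, those of the neural progenitor markers 6469 to 6806 and 7412 to 7770, and those of the neuronal markers 746 to 784 and 625 to 685. A sum does not speak for each of its genes: 3 astrocyte markers were called higher and 1 lower, 5 neural progenitor markers higher and 1 lower, and 3 neuronal markers higher and 1 lower, the last with a median log2 fold change of 0.0028 beside a lower sum. The scarce microglial markers summed to 1.31 to 1.79 and 2.12 to 3.31 CPM, and the endothelial ones to 1.81 to 2.58 and 3.31 to 5.54. The part of these markers in the *Nog*, *Fst* and *Bambi* levels was not tested.

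**Figure D4:**
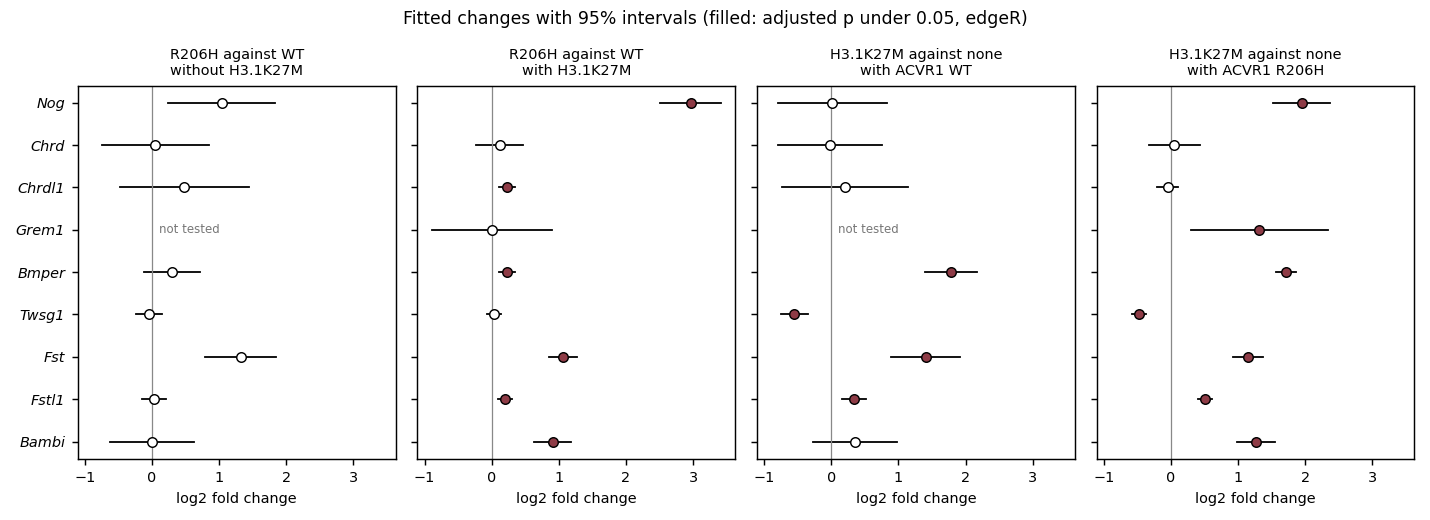
Fitted log2 fold changes (points) with 95% intervals (lines) for 9 antagonists in 4 comparisons. Filled points have an adjusted p under 0.05 by edgeR, and *Fstl3* was never tested. *Nog* at 2.96 is the largest change with *ACVR1* R206H beside H3.1K27M.

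The change with *ACVR1* R206H was larger with H3.1K27M for *Nog* and *Bambi*, but the test of that difference did not pass across all genes with the 12 samples. In the interaction fit, 0 of 9 members were called by edgeR, where 0.0712% of the 15445 genes were called, and *Nog* and *Bambi* were the 2 members at an unadjusted p under 0.05, as were 7.66% of all genes. *Nog* had an interaction of 1.92 on the log2 scale (SE 0.40, interval 1.03 to 2.81, adjusted p = 0.21), and DESeq2 called it (adjusted p = 0.0024, with 0.628% of all genes called). *Bambi* had one of 0.91 (SE 0.29, interval 0.26 to 1.56, adjusted p = 0.51). *Fst* had a negative estimate with an interval on both sides of 0 (-0.26, -0.75 to 0.24): it was higher with *ACVR1* R206H by 1.32 and 1.06 on the log2 scale without and with H3.1K27M. *Bmper* had an interaction of -0.07 (-0.45 to 0.31) and *Twsg1* one of 0.07 (-0.14 to 0.28).

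Without *ACVR1* WT replicate 1, 3 members were called in the interaction by edgeR, where 26.6% of all genes were. *Nog* then had 2.23 (adjusted p = 0.00056), *Bambi* 0.95 (adjusted p = 0.030) and *Chrdl1* -0.87 (adjusted p = 0.00047), so that the *Chrdl1* change with *ACVR1* R206H was the smaller one with H3.1K27M. Leaving out any other single sample gave 0 calls among the members. The *Acvr1* row and *Nog* had mean levels of 50.7 and 1.73 CPM with *ACVR1* WT, 93.5 and 3.53 with *ACVR1* R206H, 232 and 1.74 with *ACVR1* WT and H3.1K27M, and 877 and 13.5 with both mutations. Both were highest with both mutations, and the part of the *Acvr1* row in the *Nog* level was not tested.

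H3.1K27M beside *ACVR1* WT was accompanied by higher *Bmper*, *Fst* and *Fstl1* and lower *Twsg1*, while *Nog* did not pass the test. Of the 8 members tested, 4 were called, 3 higher and 1 lower, where 23% of the 15385 genes were called, 12.6% higher and 10.4% lower. *Bmper* rose 3.44-fold (log2 fold change 1.78, SE 0.16, edgeR, adjusted p = 0.0019) and *Fst* 2.65-fold (1.41, SE 0.21, adjusted p = 0.0075). *Fstl1* rose by a log2 fold change of 0.34 (SE 0.08, adjusted p = 0.025), and *Twsg1* fell by 0.55 on the log2 scale (SE 0.08, adjusted p = 0.0074). *Nog* had 0.02 with an interval of -0.79 to 0.83, so that a change of either sign within that interval was not excluded. *Bambi* (0.35, -0.27 to 0.98), *Chrdl1* (0.20, -0.73 to 1.14) and *Chrd* (-0.02, -0.79 to 0.75) were likewise not resolved. *Grem1* fell under the filter on low counts, and a fit of edgeR without the filter gave it 2.24 on the log2 scale (adjusted p = 0.022).

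The *Fstl1* call was lost when *ACVR1* WT replicate 2 or any of the 3 samples with H3.1K27M was left out, with adjusted p of 0.066 to 0.11. Without *ACVR1* WT replicate 1, *Chrdl1* was called as well (0.82, adjusted p = 0.00038 from edgeR), in a fit that called 52.6% of all genes. *Bmper*, *Fst* and *Twsg1* were called in every one of these fits, with log2 fold changes of 1.68 to 1.98, 1.29 to 1.64 and -0.61 to -0.48.

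Beside *ACVR1* R206H, the samples with H3.1K27M had higher levels of most antagonists, in a comparison where most genes differed. Of the 9 members tested, 7 were called, 6 higher and 1 lower, where 56.5% of the 15482 genes were called, 29.1% higher and 27.4% lower. The 6 include *Grem1*, which passed the filter on low counts only through the group where it was higher. *Nog* rose 3.85-fold (log2 fold change 1.95, SE 0.19, edgeR, adjusted p = 4.3e-06), *Bmper* 3.28-fold (1.71, SE 0.07, adjusted p = 2.9e-09), *Bambi* 2.41-fold (1.27, SE 0.13, adjusted p = 6.3e-06) and *Fst* 2.22-fold (1.15, SE 0.10, adjusted p = 2.2e-06). *Fstl1* rose by 0.51 (SE 0.05) and *Twsg1* fell by 0.48 (SE 0.05) on the log2 scale. *Grem1* rose by 1.32 on the log2 scale (SE 0.47, adjusted p = 0.03) with groups that overlapped. DESeq2 gave an adjusted p of 0.065 and the edgeR fit of all 12 samples one of 0.056. Each left 6 members called in place of 7. The *Grem1* call was also lost without any single one of the 3 *ACVR1* R206H samples. Of the 12 alternatives only 9 tested *Grem1*, and 4 of these kept the call. *Chrd* (0.05, -0.33 to 0.44) and *Chrdl1* (-0.05, -0.20 to 0.10) did not pass the test.

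*Bmper* and *Twsg1* thus had the same direction and a like size beside either receptor, 1.78 and 1.71 for *Bmper* and -0.55 and -0.48 for *Twsg1*. These 2 comparisons share no samples with each other, but each shares its groups with the comparisons of the receptors above. Markers of other cell types also moved with H3.1K27M. The summed level of 6 fibroblast and meninges markers was 2.59 to 3.62 CPM with *ACVR1* WT, 2.78 to 3.72 with *ACVR1* R206H, 7.17 to 9.70 with *ACVR1* WT and H3.1K27M and 9.35 to 11.6 with both, with all 6 markers detected in each group. The 5 endothelial markers summed to 1.12 to 5.54 CPM over the 12 samples, highest with both mutations, and 1 of them was at 0 in every group but that one. The 7 neuronal markers summed to 1152 to 1687 CPM without H3.1K27M and 625 to 784 with it, the 6 microglial markers to 3.21 to 11.9 and 1.31 to 3.31, and the 3 erythroid markers were at 0 throughout. Single markers did not all follow these sums. Of the neuronal markers, 1 was called higher with H3.1K27M and 2 lower beside *ACVR1* WT (median log2 fold change -0.90), and 4 higher and 2 lower beside *ACVR1* R206H (median 0.46). The 8 oligodendrocyte lineage markers summed to 2372 to 3278 CPM without H3.1K27M and 3493 to 4230 with it, with 1 called higher and 1 lower beside *ACVR1* WT and 5 higher and 2 lower beside *ACVR1* R206H. Of the microglial markers 0 were called higher and 3 lower beside *ACVR1* WT, and 1 higher and 1 lower beside *ACVR1* R206H. Astrocyte markers had 0 higher and 2 lower, and 1 higher and 4 lower, in the same order. The 6 astrocyte markers summed to 3308 to 12540 CPM with *ACVR1* WT and 5866 to 6992 with *ACVR1* R206H, above the groups with H3.1K27M except for *ACVR1* WT replicate 1. Fewer or more cells of a type and less or more RNA per cell cannot be told apart in bulk samples, and the part of these markers in the *Bmper*, *Fst*, *Fstl1*, *Twsg1*, *Grem1*, *Nog* and *Bambi* levels was not tested.

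As a description with no test, the ratio of mean CPM between the samples with both mutations and *ACVR1* WT alone was 7.80 for *Nog*, 5.51 for *Fst*, 4.84 for the scarce *Grem1*, 4.02 for *Bmper* and 2.39 for *Bambi*. It was 1.44 for *Fstl1*, 1.34 for *Chrdl1*, 1.07 for *Chrd* and 0.694 for *Twsg1*. Without *ACVR1* WT replicate 1 it was 2.06 for *Chrdl1* and 0.877 for *Chrd*, and 6.49 for *Fst* then exceeded 6.35 for *Nog*; the others were 4.58 for *Bmper*, 4.09 for *Grem1*, 2.35 for *Bambi*, 1.45 for *Fstl1* and 0.666 for *Twsg1*. *Nog* and *Fst* differed with H3.1K27M and *ACVR1* WT. There *Nog* had 1.74 ± 0.211 CPM (SD, n = 3), near the 1.73 ± 0.702 of *ACVR1* WT, whereas *Fst* had 6.34 ± 0.441 CPM beside 2.39 ± 0.629. With *ACVR1* R206H alone both lay above *ACVR1* WT, at 3.53 ± 0.427 CPM for *Nog* and 5.95 ± 0.519 for *Fst*.

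The other genes of the pathway give the setting for these values. Of 14 BMP target genes 12 were tested, and with H3.1K27M 11 rose with *ACVR1* R206H and 0 fell, with a median log2 fold change of 1.77, where 11.4% of all genes rose and 8.95% fell. *Id1*, *Id2* and *Id3*, the classical BMP targets that encode inhibitors of basic helix-loop-helix factors, had log2 fold changes of 2.99, 2.15 and 2.99, beside 2.96 for *Nog*. Without H3.1K27M the same genes had 1.21, 0.40 and 0.67, and of the 12 targets tested edgeR called 0 (0% of all genes), 4 were at an unadjusted p under 0.05 (3.54% of all genes) and DESeq2 called 2 (0.173% of all genes). In the interaction, where 0.0712% of all genes were called, edgeR called 2 of the 12, *Id2* (1.75, adjusted p = 0.0059) and *Id3* (2.31, adjusted p = 0.0059). These counts also rested on *ACVR1* WT replicate 1. Without it edgeR called 4 targets higher and 2 lower with *ACVR1* R206H in cells without H3.1K27M, where 12.1% and 11% of all genes were, with log2 fold changes of 1.08 for *Id1* (adjusted p = 0.013), 0.26 for *Id2* (adjusted p = 0.096) and 0.51 for *Id3* (adjusted p = 0.025). *Id4*, of the same family, was among the 2 lower (-0.80, adjusted p = 0.016). In the interaction edgeR then called 9 of the 12 targets, all positive, where 26.6% of all genes were called, among them *Id1* (1.93), *Id2* (1.90) and *Id3* (2.48).

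Further antagonists were called in both directions. Of 20 further antagonists 11 were tested with H3.1K27M, and 2 rose and 1 fell with *ACVR1* R206H by edgeR, a share near the 20.3% of all genes, so that nothing is read from this count. *Nbl1*, a relative of gremlin, rose from 63.4 ± 3.55 to 101.4 ± 7.43 CPM (SD, n = 3), *Fstl5* from 4.49 ± 0.424 to 6.97 ± 0.537 CPM, and *Smoc1* fell from 363 ± 27.7 to 235 ± 17.9 CPM. Among the 3 proteases of the tolloid kind that cleave chordin, 2 were tested and edgeR called 0, with 0 at an unadjusted p under 0.05 and 0 by DESeq2.

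Ligands moved both ways. Of 29 ligand genes 13 were tested with H3.1K27M, and 5 rose and 3 fell with *ACVR1* R206H, where 20.3% of all genes were called. *Bmp3* (log2 fold change -1.26) and *Bmp7* (-0.60) fell, and *Tgfb2* (0.42) rose, all past the threshold of edgeR's test. Of 16 receptors and co-receptors 14 were tested, and 4 rows rose and 0 fell, against 11.4% of all genes called higher. One of the 4 was the *Acvr1* row (adjusted p = 0.00045 by edgeR), in which reads of the introduced gene cannot be told apart. The others were the type I BMP receptors *Bmpr1a* (0.99) and *Bmpr1b* (0.40) and the co-receptor *Rgma* (0.53). Without H3.1K27M edgeR called 0 genes of each of these lists, in a fit that called 0% of all genes, with 1 of the further antagonists, 2 ligands and 2 receptors at an unadjusted p under 0.05, as were 3.54% of all genes, and DESeq2 called 1 receptor, with 0.173% of all genes called. The latter was the *Acvr1* row, which was also 1 of the 2 receptors at an unadjusted p under 0.05, beside *Bmpr1a*. Without *ACVR1* WT replicate 1, where 23.1% of all genes were called, edgeR called 2 of 10 further antagonists higher and 1 lower, 2 of 15 ligands higher and 4 lower, 3 of 13 receptors higher (with the *Acvr1* row) and 3 lower, and the 1 protease tested higher. Of the genes named above, *Fstl5* (0.83) and *Bmp7* (0.72) were then higher and *Bmpr1b* (-0.32) and *Rgma* (-0.32) lower with *ACVR1* R206H, so that *Bmp7*, *Bmpr1b* and *Rgma* had the opposite sign to that beside H3.1K27M. In the interaction without that sample 26.6% of all genes were called. Of 11 further antagonists 2 were called positive and 1 negative, a share near that of all genes, of 15 ligands 6 and 2, of 14 receptors 4 and 2, and the 1 protease tested was negative.

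**Figure D5:**
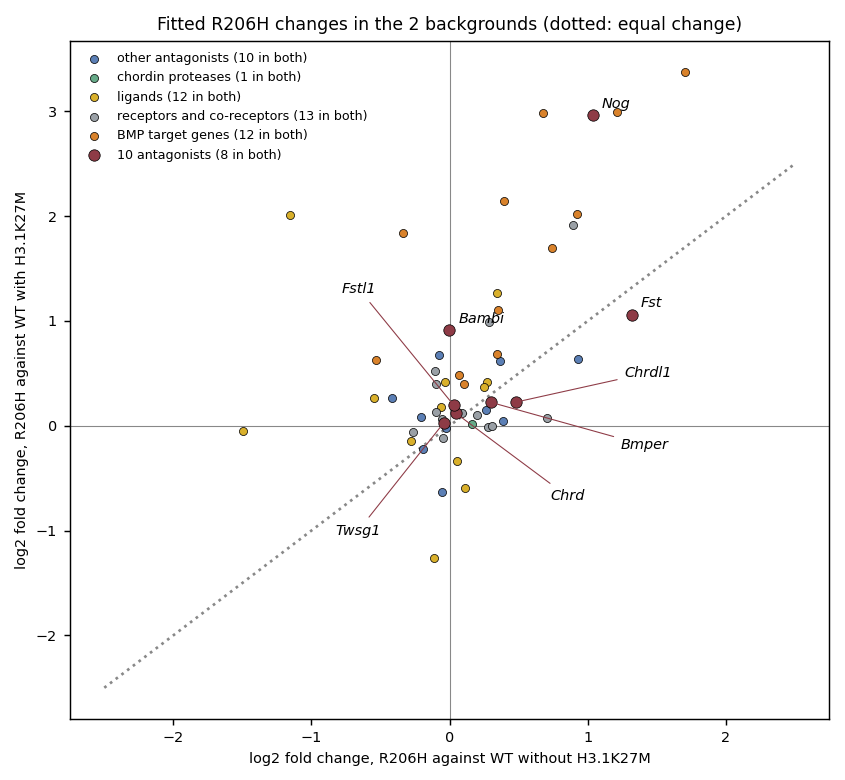
Fitted log2 fold change of *ACVR1* R206H against *ACVR1* WT without (horizontal axis) and with H3.1K27M (vertical axis) for the antagonists and the other pathway genes tested in both. The dotted line marks equal changes. *Nog* (1.04 and 2.96) and *Bambi* (-0.00068 and 0.91) lie above it among BMP target genes, and *Fst* (1.32 and 1.06) lies below it.

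The genes most like each antagonist were taken by Pearson correlation of log2 CPM over the 12 samples, which share the 4 groups, so that this is a description. *Nog* was most like *Smad7* (r = 0.987), the gene of an inhibitory SMAD, and *Pdgfd* (0.980). *Bmper* was most like *Gpx3* (0.997) and *Creb3l1* (0.997), and *Fst* was most like *Diras2* (0.985) and *Cpne2* (0.981). *Bambi* was closest to *Pfkp* (0.973), *Fstl1* to *Itgb3* (0.981) and *Chrdl1* to *Myh9* (0.968), each followed by *Gas2l1* (0.963), *Olfml2b* (0.968) and *Phf19* (0.965). *Twsg1*, with the opposite course, was most like *Paip2* (0.987) and *Retreg1* (0.986), and *Grem1* was most like *Fam217a* (0.958) and *Mgp* (0.900).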

How the data were processed

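RNAseq of 12 samples, 3 in each of 4 groups, was used, with groups and replicate numbers from the labels. The authors aligned reads to mm10 with STAR 2.6.0b-1, counted them per Ensembl gene with HTSeq without strand, and deposited raw counts per gene, neither normalized nor pooled. Positions, exon lengths and symbols were taken from GENCODE M21 (GRCm38), in which 54495 of the 54532 genes were found.

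CPM were computed with TMM factors over the 12 samples and divided by merged exon length where genes were compared with each other. Each comparison was fitted on its 6 samples, and the interaction on all 12, by the quasi-likelihood F test of edgeR (version 4.0.16 in R 4.3.3, with TMM). A gene was tested where its mean count after median-of-ratios scaling was 10 or more. p values were adjusted by Benjamini-Hochberg over all genes tested, with a threshold of 0.05. Standard errors are those implied by the test, and intervals are at 95%. The alternatives were DESeq2 1.42.0, its size factors within edgeR, no filter, at least 10 counts in every sample, a replicate block, all 12 samples in one fit and leaving out each sample. The fits were tested on simulated data.

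The labels do not say that replicates came from separate litters or cultures, so that p values measure the spread between these samples, which may be technical. Depth was similar between samples, and the counts of *Grem1* and *Fstl3* were low. The members and the gene lists were chosen with earlier results of these data known. Genes named besides the members are *Acvr1*, those that share exon bases with a member, at most the 3 with the smallest adjusted p per list in *ACVR1* R206H against *ACVR1* WT with H3.1K27M, and the 2 most correlated with each called member. *Id4* is named beside the other Id genes.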

Additional observations from a re-analysis of the deposited data

How the results depend on the processing

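No paired design is stated in the labels, and same-numbered samples had correlations of their deviations from -0.14 to 0.42, so that the replicate numbers were not taken as pairs. In *ACVR1* WT with against without H3.1K27M alone, every sample correlated best with its own number, at 0.014 to 0.039. For R206H without H3.1K27M, replicates 1 and 2 did so at 0.31 and 0.42, and replicate 3 did not, at -0.14. These correlations do not settle whether the samples were paired. With the replicate block in edgeR the members called were 0 for R206H without H3.1K27M, 6 for R206H with it, 7 for H3.1K27M beside *ACVR1* R206H and 0 in the interaction, the same counts as without the block, and 3 in place of 4 for H3.1K27M beside *ACVR1* WT, where *Fstl1* was lost (adjusted p = 0.085). Over all genes the block called 2023 in place of 3533 in that comparison and 2 in place of 11 in the interaction. It called 3335 in place of 3185 for R206H with H3.1K27M and 8606 in place of 8745 for H3.1K27M beside *ACVR1* R206H.

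For R206H without H3.1K27M, 1 member (*Fst*) was called in place of 0 by DESeq2 and with all 12 samples in one fit, and 0 to 4 when 1 sample was left out. For R206H with H3.1K27M, all 12 samples in one fit gave 3 in place of 6, and in the interaction DESeq2 gave 1 in place of 0 and leaving out samples 0 to 3. The cause was not tested, other than that the counts of 4 and 3 needed the loss of *ACVR1* WT replicate 1. Over all genes the calls without H3.1K27M were 0, with 26 by DESeq2, 11 with 12 samples in one fit and 3485 without that replicate. With H3.1K27M they were 3185 and 440 with 12 samples in one fit, 56% and 80% of them higher, and 1915 to 2966 with samples left out. The H3.1K27M comparison beside *ACVR1* WT had 6335 with 12 samples in one fit and 1037 to 8115 with samples left out. The interaction had 97 by DESeq2, 18 without a filter and 3 to 4112 with samples left out.

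Signs turned mostly for values near 0. *Chrdl1* also turned without *ACVR1* WT replicate 3, from 0.20 for H3.1K27M beside *ACVR1* WT and from -0.25 in the interaction. *Bambi* without H3.1K27M had 0.00020 by DESeq2, 0.00039 with median-of-ratios factors, 0.033 with the replicate block and -0.20 to 0.26 with samples left out. *Grem1* in R206H with H3.1K27M had -0.014 by DESeq2 and without a filter, -0.010 with 12 samples in one fit, -0.0012 with median-of-ratios factors, -0.00081 with the block and -0.33 to 0.38 with samples left out. *Chrd* had 0.044 with the block in the H3.1K27M comparison beside *ACVR1* WT. With single samples left out, R206H without H3.1K27M spanned -0.023 to 0.077 for *Fstl1*, -0.24 to 0.30 for *Chrd* and -0.098 to 0.033 for *Twsg1*. H3.1K27M beside *ACVR1* WT spanned -0.28 to 0.27 for *Nog*, -0.31 to 0.24 for *Chrd* and -0.076 to 0.82 for *Chrdl1*. Beside *ACVR1* R206H it spanned -0.070 to 0.22 for *Chrd* and -0.11 to 0.021 for *Chrdl1*. The interaction spanned -0.18 to 0.37 for *Chrd*, -0.87 to 0.029 for *Chrdl1*, -0.0011 to 0.14 for *Twsg1* and -0.26 to 0.037 for *Bmper*. Of the values of single members under the alternatives, 486 kept direction and side of the threshold, 16 lost the call, 11 gained it and 39 turned sign.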
